A study of Mus musculus with 12 samples.

Results

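The regions described here are the H3K27me3 peaks of the E10.5 mouse forelimb bud that met no H3K27me3 peak in the distal forelimb of wild-type embryos at E11.5. They were chosen from the peak lists of these 2 libraries as autosomal E10.5 peaks without 1 bp of overlap, and they are called gone peaks below. There were 2055 of them among 15077 autosomal E10.5 peaks, or 13.6%, and the full E10.5 list held 17556 peaks. The other 13022 autosomal peaks are called kept. A gone peak is a region where a peak was no longer called, which is not a measurement that the mark was removed. In bulk chromatin, fewer cells with the mark and less of the mark per cell cannot be told apart.

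The study profiled chromatin by immunoprecipitation and sequencing (ChIP-seq), with 1 library per group and therefore no replicate check of any value here. The double mutant is Hoxa13-/-;Hoxd13-/- at E11.5, in a mixed C57BL/6 and CD1 background, and it was profiled for H3K27me3 and H3K27ac in the distal forelimb bud. Its Hoxa13 allele carries a neomycin cassette in the coding region and its Hoxd13 allele a lacZ reporter in the first exon, and both are present in every cell of the embryo. Wild-type distal forelimb buds of the same age and mixed background were profiled for H3K27me3, H3K27ac, HOXA13 and HOXD13. The E10.5 library came from forelimb buds of CD1 mice and was made with an H3K27me3 antibody of another supplier (Cell Signaling, against Millipore at E11.5). Stage, strain, antibody and part of the limb differ together between the E11.5 and E10.5 libraries and cannot be told apart. The labels do not say whether embryos were pooled. On autosomes the lists held 18973 double-mutant and 19624 wild-type H3K27me3 peaks, covering 60.0 and 74.3 Mb, against 50.2 Mb at E10.5. They also held 37433 double-mutant and 31220 wild-type H3K27ac peaks, 30657 HOXA13 peaks and 22372 HOXD13 peaks. Read depth is unknown from peak lists. Intervals beside unweighted shares are Wilson 95% intervals for the number of peaks counted. Those beside differences and beside weighted shares, which are explained below, are normal-approximation 95% intervals. Neither kind includes the spread between embryos or the dependence between neighbouring peaks.

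Polycomb repressive complex 2 places methyl groups on lysine 27 of histone H3, and the resulting H3K27me3 is bound by Polycomb repressive complex 1 and marks silent developmental genes and their regulatory regions. Acetylation of the same lysine, H3K27ac, marks active promoters and enhancers, and a given histone tail cannot carry both at this residue. Peaks of both marks can still overlap in a tissue, because neighbouring nucleosomes, alleles and cells differ. In the distal limb bud the homeodomain proteins HOXA13 and HOXD13 bind DNA, and without both of them digits do not form. The lists allow the question of whether regions that leave the called Polycomb state between both stages are those acetylated at E11.5 or those that HOX13 factors bind. They also allow the question of whether such regions are called for H3K27me3 at E11.5 when both factors are missing. H3K27ac was not profiled at E10.5, so a gain of acetylation between the stages cannot be read from these lists.

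Gone peaks were mostly low-scoring and narrow. The authors' peak score had a median of 71.7 in gone peaks and 224 in kept peaks, and the median width was 1611 bp against 2589 bp. Only 503 gone peaks (24.5%) scored 100 or more, against 9600 kept peaks (73.7%), and 34 gone peaks scored 300 or more, against 5558 kept peaks. From the lowest to the highest decile of E10.5 score, the share of gone peaks was 39.7% (37.3 to 42.2%), 31.6%, 26.9%, 17.5%, 10.6%, 6.30%, 2.65%, 0.796%, 0.199% and 0.0663% (0.0117 to 0.375%). Absence of a wild-type peak was thus called almost entirely in the lower score range, and the top 3 deciles held 16 gone peaks (12, 3 and 1). With a score of 100 or more required of E10.5 peaks, 4.98% were gone. These values chose the regions, or come from the same comparison, and are given as a description.

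**Figure D1:**
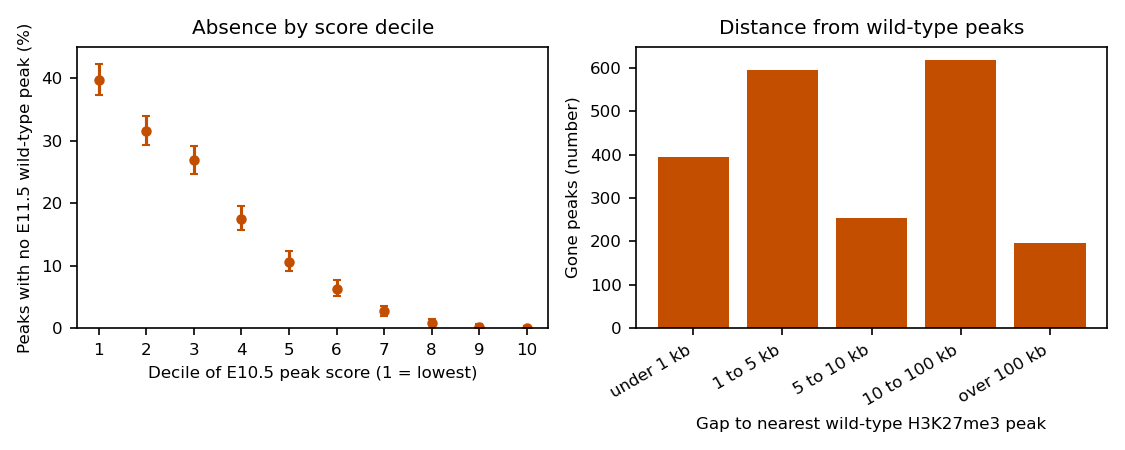
Left, share of autosomal E10.5 H3K27me3 peaks with no wild-type E11.5 peak (%) by decile of E10.5 score, with Wilson 95% intervals; it is 39.7% in the lowest and 0.0663% in the highest decile. Right, number of gone peaks by the gap to the nearest wild-type H3K27me3 peak; 394 lie under 1 kb away and 197 over 100 kb away.

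Most gone peaks lay near a region called for H3K27me3 in wild type at E11.5. The median gap to the nearest wild-type H3K27me3 peak was 5517 bp (quartiles 1530 and 24620 bp), and 1241 gone peaks (60.4%) lay within 10 kb of a wild-type peak. Under 1 kb of separation was seen for 394 gone peaks (19.2%), and more than 100 kb for 197 (9.59%). At the limit of the rule, 59 gone peaks lay within 100 bp of a wild-type peak, the closest 5 bp away, and 45 kept peaks shared under 100 bp with wild-type peaks, the smallest overlap being 4 bp. Kept peaks were mostly covered in full, with a median coverage of 100% by wild-type peaks. The nearest wild-type peak was itself called at E10.5 for 930 of the 1241 gone peaks within 10 kb of one (74.9%, 72.5 to 77.3%). These 930 made up 45.3% of gone peaks, and they stood near a region called at both stages. The share of all wild-type peaks that met an E10.5 peak is not given here for comparison.

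The gone peaks with the highest scores are described next, region by region. The highest-scoring gone peak was on chromosome 14 from 30952204 to 30958847, with a score of 1496. Another, from 30943698 to 30951858 with a score of 750, lay 345 bp away, and a weaker peak from 30941720 to 30943646 with a score of 84.8 adjoined it. No peak of either E11.5 H3K27me3 list lay within 119579 bp of the 2 stronger peaks, and no H3K27ac or HOX13 peak overlapped them. The nearest wild-type H3K27ac peak was 36679 bp from the highest-scoring peak. Among gone peaks, the highest E10.5 score thus stood where none of the 6 E11.5 lists held a peak.

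The next in order of score was on chromosome 6 from 100364237 to 100371518, with a score of 771. It met 2 wild-type H3K27ac peaks that covered 20.8% of it, the higher with a score of 738, and 1 double-mutant H3K27ac peak that covered 3.45% (score 627). Peaks of HOXA13 and HOXD13 with scores of 124 and 103 touched its edge. A wild-type H3K27me3 peak remained 4709 bp away.

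On chromosome 15, the gone peak from 76034626 to 76041043 had a score of 545 and carried the most acetylation of these. Double-mutant H3K27ac covered 61.9% of it in 2 peaks and wild-type H3K27ac 72.3%, with top scores of 842 and 3100. HOXA13 (score 323) and HOXD13 (score 320) each covered under 20% of it. An E11.5 H3K27me3 peak lay 3624 bp away in the double mutant and 3565 bp away in wild type. Here the E10.5 Polycomb peak and the E11.5 acetylation occupied the same stretch.

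The widest gone peaks carried no other mark. They were on chromosome 13 from 71791893 to 71803286 (11394 bp, score 549), on chromosome 14 from 30943698 to 30951858 (8161 bp) and on chromosome 12 from 74823119 to 74831255 (8137 bp, score 605). None of them overlapped double-mutant H3K27me3, H3K27ac or a HOX13 peak. The first lay 911 bp from a double-mutant and 2581 bp from a wild-type H3K27me3 peak. A further isolated peak, on chromosome 19 from 14401802 to 14407078 with a score of 480, had its nearest double-mutant H3K27me3 peak 27902 bp and its nearest wild-type peak 202526 bp away.

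**Figure D2:**
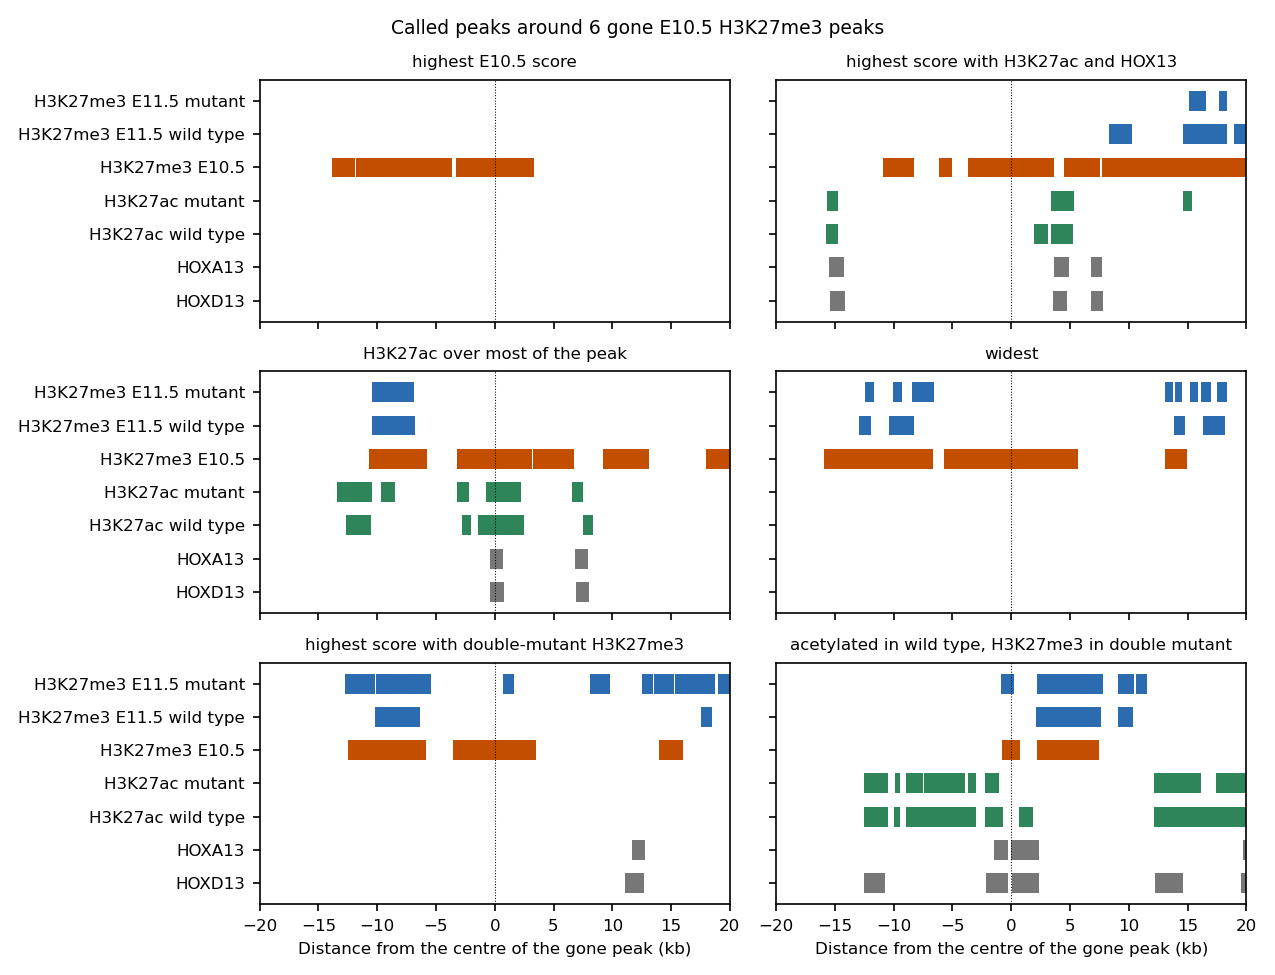
Called peaks of the 7 lists around 6 gone peaks, each row a list and the horizontal axis the distance in kb from the centre of the gone peak. The E10.5 peak is at 0 in each panel and the row of wild-type E11.5 H3K27me3 is empty there. In the panel of the highest score, no E11.5 peak of any list lies within 20 kb of the centre of the gone peak.

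To set gone peaks against kept peaks of like strength, kept peaks were weighted so that their numbers matched those of gone peaks in 25 bins of E10.5 score and width. After weighting, the median score of kept peaks was 72.2 and the median width 1599 bp, against 71.7 and 1611 bp for gone peaks. All 2055 gone peaks fell in bins with kept peaks, of which 12912 were used. Differences of shares are given in percentage points, gone minus weighted kept, with 95% intervals for counting error alone.

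Few gone peaks were called in the double mutant. A double-mutant H3K27me3 peak overlapped 211 of 2055, or 10.3% (9.03 to 11.7%), while 80.5% of all autosomal E10.5 peaks overlapped such a peak. Among kept peaks of like score and width the share was 80.7% (79.5 to 81.9%). A gap is built into this split, because kept peaks are by rule called in wild type at E11.5. Both E11.5 H3K27me3 libraries share stage, limb part, mixed background and antibody supplier, and weighting by E10.5 score does not remove this. At 1844 gone peaks H3K27me3 was called in neither E11.5 genotype. The double-mutant peaks at gone peaks were weak in their own list: 220 peaks had a median score of 85.6 and a median width of 973 bp, against 936 and 3060 bp for the 9950 double-mutant peaks at kept E10.5 peaks. They covered a median of 50.9% of the gone peak, and 109 of the 211 gone peaks were covered to 50% or more. Only 25 of the 220 double-mutant peaks (11.4%) also met a wild-type peak. For 189 of the 211 gone peaks, at least 1 of the double-mutant peaks thus shared no base with any wild-type peak. These 189 lay a median of 4163 bp from wild-type H3K27me3. Whether such a double-mutant peak was a piece of a nearby domain called in both was not tested.

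Gone peaks called in the double mutant resembled the others in E10.5 score (median 74.4 against 71.2) and width (1625 against 1610 bp), but lay closer to wild-type H3K27me3, with a median gap of 3452 bp against 5878 bp. The share called in the double mutant was 14.5% (11.3 to 18.3%) under 1 kb from a wild-type peak and 6.60% (3.90 to 11.0%) beyond 100 kb. The 3 with the highest E10.5 scores were each covered in part. On chromosome 7 from 81526722 to 81533789 the double-mutant peak covered 13.6% of the region, on chromosome 8 from 122933701 to 122938826 it covered 21.7%, and on chromosome 15 from 94636244 to 94638772 it covered 32.6%. None of the 3 met H3K27ac or HOX13, and their gaps to wild-type H3K27me3 were 2796, 9181 and 503 bp.

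Acetylation was called at a minority of gone peaks, and no more often than at kept peaks of like strength. Double-mutant H3K27ac overlapped 512 gone peaks, or 24.9% (23.1 to 26.8%), against 29.0% (27.8 to 30.2%) of weighted kept peaks, and 38.5% of all autosomal E10.5 peaks had it. Wild-type H3K27ac overlapped 381, or 18.5% (16.9 to 20.3%), against 23.0% (21.8 to 24.1%) of weighted kept peaks, with 27.8% over all autosomal E10.5 peaks. The differences were -4.06 (-6.28 to -1.83) and -4.41 points (-6.43 to -2.39). Regions without the H3K27me3 call were thus not called for H3K27ac more often. The share moved to 6.63% in wild type when an overlap had to cover at least 50% of either peak, where the difference was -1.94 points. When peaks within 1000 bp counted as overlapping, the difference was -1.13 points, with an interval that included 0 (-3.57 to 1.31).

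The shortfall lay in partial overlaps. H3K27ac covered 50% or more of the region at 213 gone peaks in the double mutant (10.4%, 9.12 to 11.8%), against 9.56% of weighted kept peaks. In wild type it did so at 102 gone peaks (4.96%, 4.11 to 5.99%), against 5.66%. Both differences had intervals that included 0, at 0.805 points (-0.754 to 2.36) and -0.700 points (-1.85 to 0.450). Lesser coverage was found at 14.5% of gone against 19.4% of weighted kept peaks in the double mutant, and at 13.6% against 17.3% in wild type. These differences were -4.86 and -3.71 points, and with the closer match of score and width -3.74 and -2.66 points. The acetylation peaks at gone regions ranked higher within their lists than those at kept regions without weighting. Their median scores were 361 against 261 in the double mutant and 555 against 317 in wild type, and all autosomal H3K27ac peaks had medians of 243 and 337 in these genotypes.

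Acetylated gone peaks were mostly acetylated in both genotypes. H3K27ac was called in both at 358 gone peaks (17.4%), in the double mutant only at 154 (7.49%, 6.43 to 8.71%) and in wild type only at 23 (1.12%, 0.747 to 1.67%). The corresponding shares of weighted kept peaks were 21.7%, 7.25% and 1.23%. The larger number in the double mutant has to be read beside its longer H3K27ac list, and the difference between genotypes was not tested. The 3 highest-scoring gone peaks with acetylation in the double mutant only had weak H3K27ac peaks. These were on chromosome 14 from 23460696 to 23468510 (E10.5 score 711, H3K27ac score 109), on chromosome 9 from 61106308 to 61114009 (433 and 57.2) and on chromosome 7 from 143030480 to 143036921 (341 and 164). The chromosome 9 peak also met a HOXA13 peak (score 94.0).

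Acetylation was more frequent far from wild-type H3K27me3 peaks. Double-mutant H3K27ac overlapped 21.3% of gone peaks (17.6 to 25.6%) under 1 kb from wild-type H3K27me3 and 32.0% (25.9 to 38.8%) beyond 100 kb. For wild-type H3K27ac the shares were 16.2% (12.9 to 20.2%) and 25.9% (20.3 to 32.4%). The median gap was 10036 bp for gone peaks with wild-type acetylation and 4982 bp for those without it. Isolated gone peaks were more often acetylated and less often called for H3K27me3 in the double mutant than those under 1 kb from a wild-type peak, while their median E10.5 scores, 74.9 and 71.7, were close.

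**Figure D3:**
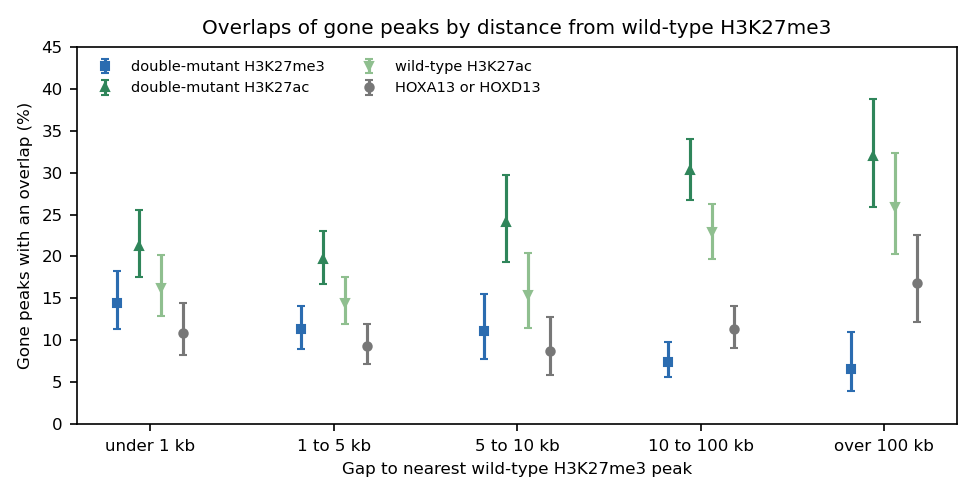
Share of gone peaks (%) that overlap double-mutant H3K27me3, double-mutant H3K27ac, wild-type H3K27ac or a peak of either HOX13 factor, by the gap to the nearest wild-type H3K27me3 peak, with Wilson 95% intervals. Double-mutant H3K27me3 is 14.5% under 1 kb and 6.60% over 100 kb, and wild-type H3K27ac is 16.2% and 25.9%.

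HOX13 peaks met about as many gone peaks as kept peaks of like strength, and no direction could be given. HOXA13 peaks overlapped 197 gone peaks, or 9.59% (8.39 to 10.9%), against 10.3% of weighted kept peaks, and 12.4% of all autosomal E10.5 peaks. HOXD13 peaks overlapped 148, or 7.20% (6.16 to 8.40%), against 7.52%, with 9.59% over all. A peak of either factor overlapped 223 gone peaks, or 10.9% (9.58 to 12.3%), against 11.52%, with 14.0% over all. Both factors were called at 122, or 5.94% (4.99 to 7.04%), against 6.28%, with 8.01% over all. The difference for either factor was -0.665 points, with an interval of -2.26 to 0.930. Its sign was the opposite under 4 of 11 alternatives, among them a minimum score of 100 throughout (1.18 points) and counting peaks within 1000 bp as overlapping (3.27 points, 1.05 to 5.49). With overlaps of at least 50% of either peak it was -1.75 points (-2.76 to -0.737), so the 2 intervals without 0 pointed in opposite directions.

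Where a factor did meet a gone peak, it mostly did so at the flank. The centre of a HOXA13 or HOXD13 peak lay inside 77 gone peaks, or 3.75% (3.01 to 4.66%), against 5.54% (4.96 to 6.12%) of weighted kept peaks, a difference of -1.79 points (-2.79 to -0.783). Overlap without a centre inside was found at 146 gone peaks, or 7.10% (6.07 to 8.30%), against 5.98% (5.32 to 6.65%). In the kilobase on either side of the peak's centre, 2.53% and 2.38% of gone peaks held the centre of a factor peak, and in the next kilobase outward 5.84% and 5.11% did. Weighted kept peaks had 3.11% and 3.41% near the centre and 5.24% and 4.74% beyond. Gone peaks were lower in both bands next to the centre and higher in 17 of the 18 bands from 1 to 10 kb, although the intervals of gone and weighted kept peaks were apart in only 2 of these 18 and in neither central band. The factor peaks themselves were not weak within their lists, without weighting. HOXA13 peaks at gone regions had a median score of 153 and HOXD13 peaks 165, against 124 and 138 at kept regions and 126 and 134 over all autosomal peaks of these factors.

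Binding at gone peaks went together with their E10.5 score. A HOX13 peak overlapped 27 of the 103 gone peaks with a score of 214 or more, or 26.2% (18.7 to 35.5%), against 51 of 617 with a score up to 60.0, or 8.27% (6.34 to 10.7%). Kept peaks within 10% of the same score and 20% of the same width had shares of 21.8% and 9.16% in these ranges, so the trend was shared by both kinds of peak. Width was not held constant between the score ranges, and a wider peak meets more peaks by construction. Among the strongest bound regions was a gone peak on chromosome 13 from 103286105 to 103292236 (E10.5 score 549). HOXA13 covered 17.4% of it (score 377) and HOXD13 17.7% (score 274). No H3K27ac was called there in either genotype, and double-mutant H3K27me3 was 455105 bp away. On chromosome 4, the gone peak from 107264473 to 107270151 (E10.5 score 390) met stronger peaks of both factors, with scores of 938 for HOXA13 and 580 for HOXD13, but only at its edge, where they covered 0.0880% and 2.59% of it.

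**Figure D4:**
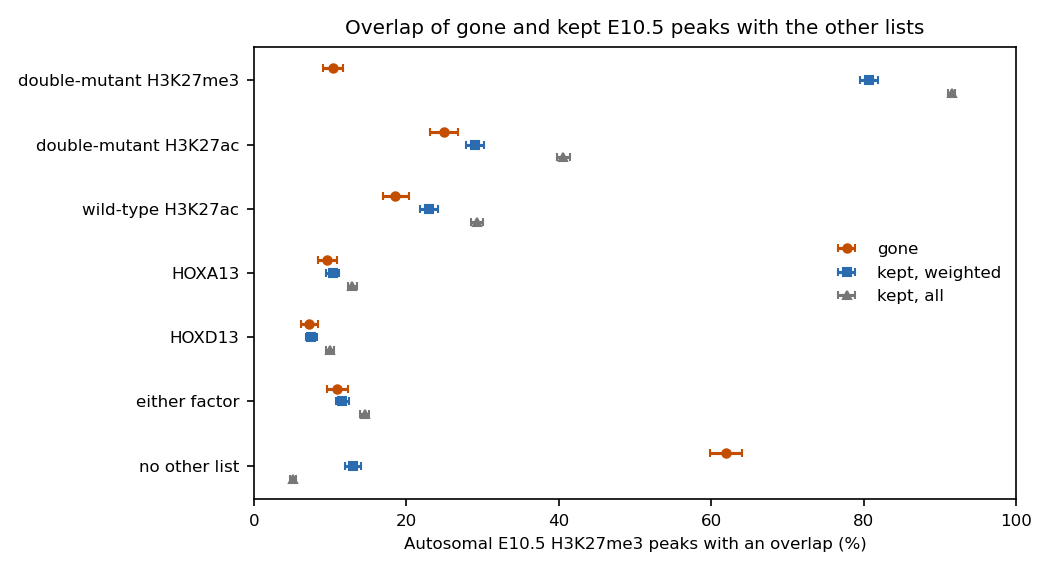
Share of gone peaks, of kept peaks weighted to the same score and width, and of all kept peaks that overlap each other list (%), with 95% intervals for the counting of peaks. Gone and weighted kept peaks lie far apart for double-mutant H3K27me3 (10.3% and 80.7%) and close together for either HOX13 factor (10.9% and 11.52%). A gap in double-mutant H3K27me3 is built into the split, because kept peaks are by rule called in wild type at E11.5. The last row is the share with none of these overlaps.

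Gone peaks that met HOX13 were more often called for H3K27me3 in the double mutant. This held for 34 of 223, or 15.2% (11.1 to 20.5%), against 177 of 1832 gone peaks without HOX13, or 9.66% (8.39 to 11.1%). After weighting to the score and width of the bound ones, the share of those without HOX13 was 10.1%, and the difference was 5.12 points (0.124 to 10.1). For peaks of both factors it was 21 of 122, or 17.2% (11.54 to 24.9%), and 7.23 points (0.341 to 14.1). The difference was positive under all 11 alternatives, between 4.00 and 10.0 points, but its interval included 0 under 5 of the 10 that gave an interval. With 1 library per genotype this difference has no test. The direction was the same at kept peaks, without weighting. Of 1892 kept peaks with HOX13, 1764 were called for H3K27me3 in the double mutant, against 11926 of all 13022 kept peaks (91.6%).

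Acetylated gone peaks had lower shares than the others. Double-mutant H3K27me3 was called at 41 of 512 gone peaks with double-mutant H3K27ac, or 8.01% (5.96 to 10.7%), against 11.8% of weighted others, a difference of -3.76 points (-6.70 to -0.826). For wild-type H3K27ac it was 33 of 381, or 8.66% (6.23 to 11.9%), against 11.2%, and the interval of the difference included 0 (-5.76 to 0.860). E10.5 peaks absent from wild type only carried HOX13 in 16.1% of cases (11.8 to 21.7%), and those absent from both genotypes in 10.2% (8.95 to 11.7%). For the 1096 E10.5 peaks absent from the double mutant only, the share was 11.7% (9.91 to 13.7%), and for the 11926 called in both genotypes it was 14.8% (14.2 to 15.4%), inside the interval of those absent from wild type only. Peaks called in both had a far higher median E10.5 score (259, against 74.4 in those absent from wild type only), and these shares are not weighted. These classes rest on the same E10.5 and E11.5 lists.

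The 3 highest-scoring gone peaks with both HOX13 and double-mutant H3K27me3 were moderate in score. The first, on chromosome 9 from 102434265 to 102438087 (E10.5 score 271), met a HOXD13 peak (score 134) and a double-mutant H3K27me3 peak (score 120), and no H3K27ac. The second, on chromosome 5 from 118507720 to 118511443 (259), met strong HOXA13 and HOXD13 peaks (scores 707 and 671) and H3K27ac in both genotypes, with 17.8% covered by double-mutant H3K27me3. The third, on chromosome 6 from 85211942 to 85215007 (204), had double-mutant H3K27ac over 63.3% of its length and wild-type H3K27ac over 25.1%, with 28.9% covered by double-mutant H3K27me3.

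HOX13 and acetylation coincided at gone peaks. Double-mutant H3K27ac was called at 112 of 223 gone peaks with HOX13, or 50.2% (43.7 to 56.7%), against 22.4% (20.2 to 24.6%) of gone peaks without HOX13 weighted to the same score and width. Wild-type H3K27ac was called at 105, or 47.1% (40.6 to 53.6%), against 14.8% (12.95 to 16.6%). Among kept peaks, without weighting, the shares were 53.4% with HOX13 against 38.5% without it in the double mutant, and 45.3% against 26.6% in wild type. A wild-type H3K27ac call was missing from the double mutant at 12 of 105 gone peaks with HOX13, or 11.4% (6.66 to 18.9%), and at 11 of 276 without, or 3.99% (2.24 to 6.99%). At kept peaks it was missing at 70 of 858 with HOX13, or 8.16% (6.51 to 10.2%), and at 111 of 2956 without, or 3.76% (3.13 to 4.50%).

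Few gone peaks were called for H3K27me3 without H3K27ac in the double mutant and for H3K27ac in wild type. There were 6 among 2055 gone peaks (0.292%, 0.134 to 0.636%). The same 3 calls were found at 1.15% (0.857 to 1.45%) of weighted kept peaks, which also carry wild-type H3K27me3, and at 1.20% of all autosomal E10.5 peaks. These shares do not compare like with like, because double-mutant H3K27me3 itself was called at 10.3% of gone and 80.7% of weighted kept peaks. Among peaks with double-mutant H3K27me3, without weighting, it was 6 of 211 gone and 175 of 11926 kept peaks. HOX13 met 5 of the 6, against 69 of 175 such kept peaks (39.4%), and 12 of all 23 gone peaks acetylated in wild type only. A count of 6 is too small to read a share from. They were singled out after their values were seen, and their E10.5 scores lay between 50.1 and 188. The one most covered by double-mutant H3K27me3 was on chromosome 3 from 96052518 to 96054048 (E10.5 score 85.2). There it covered 66.2% (score 132), wild-type H3K27ac peaks with a top score of 2186 met both of its ends and covered 15.2% of it, and HOXA13 (score 857) and HOXD13 (score 578) covered 85.4% and 77.9%. A double-mutant H3K27ac peak lay 271 bp outside the region, so acetylation stood beside it in both genotypes.

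Of the other 5, the one with the highest E10.5 score (188) was on chromosome 3 from 67693597 to 67696513. HOXA13 covered 52.1% of it (score 793) and HOXD13 37.6% (score 269), and the scores were 169 for double-mutant H3K27me3 and 62.1 for wild-type H3K27ac. On chromosome 9, from 61529750 to 61531394, both factors (scores 522 and 470) met a peak with double-mutant H3K27me3 over 55.7% and wild-type H3K27ac over 43.4% of its length. On chromosome 5, from 24513066 to 24514308, double-mutant H3K27me3 covered 16.1% (score 213) and wild-type H3K27ac 49.2% (score 648), with HOXA13 at a score of 479 and HOXD13 at 220. The remaining peaks were on chromosome 17 from 29351108 to 29352544, with HOXD13 alone (score 144), and on chromosome 11 from 85571323 to 85573179, without either factor. In these last 2 peaks wild-type H3K27ac covered 3.41% and 1.72%, so here too the marks met only at an edge, and in the chromosome 11 peak double-mutant H3K27ac lay 49 bp away.

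Double-mutant H3K27me3 and wild-type H3K27ac met at 33 gone peaks in all, and at 27 of them H3K27ac was called in the double mutant as well. An example without HOX13 was on chromosome 11 from 117340966 to 117345443 (E10.5 score 241), with double-mutant H3K27ac over 41.1% and wild-type H3K27ac over 46.6% of its length and double-mutant H3K27me3 over 6.81%. The most frequent state by far was none of these. At 1273 gone peaks, or 61.9% (59.8 to 64.0%), no double-mutant H3K27me3, no H3K27ac of either genotype and no HOX13 peak was called. Weighted kept peaks had no such overlap in 12.96% of cases, and 80.7% of them were called in the double mutant, where a gap is built into the split. A further 83 gone peaks met HOX13 and no E11.5 mark.

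Gone peaks were grouped along the chromosomes. The nearest other E10.5 peak was also gone for 812 of 2055 gone peaks, or 39.5% (37.4 to 41.6%), against 8.57% (7.79 to 9.34%) of weighted kept peaks. Gone peaks also stood farther from other E10.5 peaks, with a median gap of 2687 bp against 1591 bp for weighted kept peaks. In order along the chromosome, 947 gone peaks stood alone between kept peaks, and 1108 (53.9%) formed 392 runs of 2 or more. There were 10 runs of 8 or more, holding 100 gone peaks. These values rest on the gone calls themselves and are a description.

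The runs named next were singled out after their values were seen. The longest held 17 gone peaks in 156 kb on chromosome 4 from 107149075 to 107305293. Within it 11 gone peaks met double-mutant H3K27ac and 4 met wild-type H3K27ac, 4 met HOX13 and none met double-mutant H3K27me3. The span held 23 double-mutant against 8 wild-type H3K27ac peaks. The double-mutant H3K27ac list is also longer as a whole (37433 against 31220 autosomal peaks), and most other runs of 8 or more held more double-mutant than wild-type H3K27ac peaks. A run of 11 on chromosome 12 from 113540080 to 113714334 had a different makeup, with 5 gone peaks called for H3K27me3 in the double mutant, where the span held 7 double-mutant and 1 wild-type H3K27me3 peaks. A run of 8 on chromosome 13 from 103077521 to 103301459 met no H3K27ac and no H3K27me3 of either genotype at its gone peaks, and 3 of them met HOX13. Another run of 8, on chromosome 6 from 52723548 to 52941522, lay in acetylated and bound chromatin, with 35 double-mutant and 24 wild-type H3K27ac peaks, 27 HOXA13 peaks and 25 HOXD13 peaks in 218 kb.

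Counted in windows of 1 Mb, gone peaks occurred in 689 of the 1783 windows with an autosomal E10.5 peak, and 37 windows with 10 or more held 531 of them (25.8%). Most were found on chromosome 6 from 100 to 101 Mb, where 29 of 69 E10.5 peaks (42.0%) were gone, against 15.7 from the scores and widths of the peaks alone. On chromosome 17 from 86 to 87 Mb it was 27 of 46 (58.7%), against 10.2, and on chromosome 8 from 123 to 124 Mb 27 of 103 (26.2%), against 17.9. In the chromosome 6 window 7 of the 29 met HOX13, in the chromosome 17 window 3 of 27 and in the chromosome 8 window 1 of 27. In the 37 windows as a whole, double-mutant H3K27me3 met 11.9% of gone peaks (9.38 to 14.9%), against 9.71% (8.32 to 11.3%) elsewhere, and double-mutant H3K27ac 23.7% (20.3 to 27.5%) against 25.3% (23.2 to 27.6%). Wild-type H3K27ac met 14.1% of gone peaks (11.4 to 17.3%), against 20.1% (18.1 to 22.2%) elsewhere, and HOX13 met 13.9% (11.2 to 17.1%) against 9.78% (8.39 to 11.4%), where 14.0% of all autosomal E10.5 peaks had it. The shares inside and outside the 37 windows are not weighted, and the median E10.5 score of gone peaks was 77.5 inside and 69.3 elsewhere. All of these windows were chosen for their number of gone peaks, so a count above that given by score and width is built into the choice. Windows on the other side, picked after their values were seen for the largest shortfall, were on chromosome 8 from 94 to 95 Mb, with 4 of 111 peaks gone against 18.7, on chromosome 5 from 120 to 121 Mb, with 1 of 71 against 11.48, and on chromosome 13 from 72 to 73 Mb, with 0 of 45 against 9.99. By chromosome, the share of E10.5 peaks that were gone ran from 7.30% (5.39 to 9.83%) on chromosome 3 to 19.4% (16.3 to 23.0%) on chromosome 14, where scores and widths alone gave 12.1% and 14.8%.

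**Figure D5:**
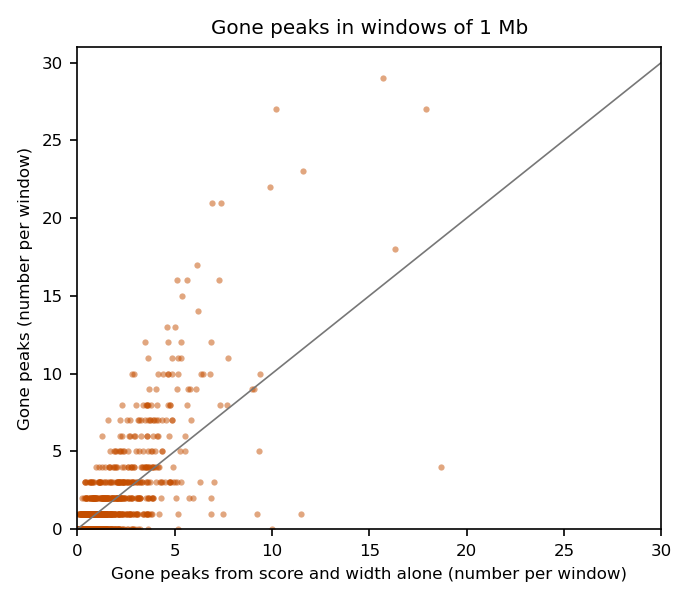
Number of gone peaks in each of 1783 windows of 1 Mb against the number that the scores and widths of the window's E10.5 peaks give alone, with the line of equality. The windows chosen for most gone peaks, with 29, 27 and 27, lie above the line, and others lie far below it, such as 4 gone peaks against 18.7.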

How the data were processed

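Per the submitters' processing notes, the tools were Bowtie 0.12.7 and MACS 1.4 and the genome build was mm9. The deposited lists, 1 per library, give the authors' peak score (lowest 50.0), which depends on depth and input and was used within 1 list only. Every list had 6 to 16 peaks beyond 195471971 bp, where chromosome 1 ends in GRCm38, the build of the reference at hand. Peaks were for this reason not linked to genes or bases, and tissue markers were not checked. Coordinates count from 1.

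Overlap meant at least 1 bp. Kept peaks were weighted to gone peaks in 25 bins, cut at the 30, 60, 80 and 95 percentiles of gone-peak score and width. These percentiles were set and tested on simulated overlaps. The simulated rate followed score and did not depend on width, so the test did not cover the match of width. Groups came from sample titles, and with 1 library each no test was run. Alternatives were stricter scores, other overlap rules, joined peaks, equal list lengths, all chromosomes, other bins, both factors and, added once the data had been seen, kept peaks within 10% of score and 20% of width. Regions named are the 3 highest-scoring gone peaks of each of 9 classes, the 3 widest and the 3 windows with most gone peaks, outside chromosome 18, and, picked after their values were seen and said so beside them, 6 more peaks, 4 runs and 3 windows. Members and lists were chosen with earlier results of these data known. Python 3.11.15, numpy 2.4.6 and pandas 2.3.3 were used. Input libraries were not analysed here.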

Additional observations from a re-analysis of the deposited data

How the results depend on the processing

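The share of E10.5 peaks that were gone (13.6%) was 6.31% when each list was limited to scores from 100 upward, 4.98% when only the E10.5 list was, 15.5% when overlaps had to reach 50% of either peak, 11.0% with peaks within 1000 bp counted as overlapping, 14.2% with joined peaks and 12.9% on all chromosomes. In the first 2 and the 1000 bp settings, in that order, double-mutant H3K27me3 met 8.31%, 12.3% and 11.8% of gone peaks (10.3% as reported). Wild-type H3K27ac (18.5%) met 21.0% and 23.7% with these scores, 6.63% with 50% overlap and 27.2% within 1000 bp. HOX13 (10.9%) met 17.1% with the E10.5 score, 4.11% with 50% overlap, 21.5% within 1000 bp and 5.94% for both factors. Longer reach gives more overlaps by construction. The H3K27ac difference (-4.41 points) was -1.94 with 50% overlap and -1.13 within 1000 bp. It stayed negative under its 10 alternatives, with an interval including 0 under 3 of 9. The HOX13 difference (-0.665 points) turned to 1.18 and 0.804 with the score limits in every list and in the E10.5 list, 3.27 within 1000 bp and 0.918 on all chromosomes, but was -1.75 with 50% overlap; the cause was not tested. The difference in double-mutant H3K27me3 between bound and other gone peaks (5.12 points) stayed inside its interval under all 11 alternatives. No paired analysis was possible because each group holds 1 library. Depth is unknown, and most gone peaks score near the calling limit, so absence of a call is a weak measurement there.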
